A study of Homo sapiens with 12 samples.

Results

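The HOX genes described here are the protein-coding genes named HOXA, HOXB, HOXC or HOXD followed by a position number. The rule used gene name and biotype alone, and it was set with earlier results of these data known. Of the 33331 genes listed in the series, 39 met it. The HOXA cluster on chromosome 7 gave 11 members, the HOXB cluster on chromosome 17 gave 10, the HOXC cluster on chromosome 12 gave 9 and the HOXD cluster on chromosome 2 gave 9. By position, 8 were anterior (numbers 1 to 3), 15 central (4 to 8) and 16 posterior (9 to 13). They were measured in SW480, a human colorectal adenocarcinoma cell line, by sequencing polyadenylated RNA from 4 groups of 3 libraries. A single SW480 clone with ALDH1B1 knocked out expressed either EGFP, a fluorescent control protein, or ALDH1B1, a mitochondrial aldehyde dehydrogenase. The parental SW480 line, whose own ALDH1B1 gene was not knocked out, was kept for 24 h with an ALDH1B1-selective inhibitor at 2 µM or with the solvent DMSO.

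HOX genes encode transcription factors that bind DNA through a homeodomain and give cells their place along the head-to-tail axis of the embryo. Within each cluster, genes with low position numbers are used in anterior regions and respond early to retinoic acid, and those with high numbers are used in the trunk, the hindgut and the tail. Genes with the same number in different clusters are paralogs. Epithelia of the adult gut keep part of this positional pattern, and many tumours alter it. HOX proteins bind DNA with cofactors of the TALE class (PBX, MEIS and PKNOX proteins), and Polycomb and Trithorax group proteins keep the clusters repressed or active.

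The clusters also hold microRNA genes. Mature miR-196a is encoded in the HOXC cluster (MIR196A2, hg38 chr12:53991762-53991783, plus strand) and in the HOXB cluster (MIR196A1, chr17:48632532-48632553, minus strand), and miR-196b in the HOXA cluster (MIR196B, chr7:27169528-27169549, minus strand). Their sequences, from RefSeq on GRCh38.p14, are shown because their known target HOXB8 had the highest level per kilobase of all members in the clone. Capitals mark the seed, bases 2 to 8, which both share, and in the HOXB8 site the bases opposite that seed.
miR-196a-5p: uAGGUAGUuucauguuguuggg
miR-196b-5p: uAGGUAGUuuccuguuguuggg
HOXB8 site: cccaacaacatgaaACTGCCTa
This site starts at base 1378 of transcript HOXB8-201 in GENCODE release 29 and was found by pairing miR-196a-5p along the transcripts of the 39 members. Of its 22 bases, 21 formed Watson-Crick pairs and 1, opposite the seed, formed a G-U pair. Sites were kept only where bases 2 to 8 all formed Watson-Crick or G-U pairs, and were ranked by both kinds of pair together. HOXA9 ranked next, where 15 of 22 bases formed Watson-Crick pairs and 4 formed G-U pairs. HOXA7, HOXB7, HOXC8 and HOXA6 had fewer pairs in all, at 17, 15, 14 and 14. Their best sites formed Watson-Crick pairs along the whole seed, which those of HOXB8 and HOXA9 did not. Oligo(dT) selection does not capture mature microRNAs, so the amount of miR-196 was not measured.

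RefSeq promoter windows of 300 bases around a transcript start were found for 20 of the 39 members (27 windows). Those of HOXD10 and HOXD11 are shown because these neighbours were the 2 HOXD genes over 1 CPM with the largest differences between clone and parental line. Both are on the plus strand of GRCh38.p14, at chr2:176116528-176116827 for HOXD10 and chr2:176107030-176107329 for HOXD11, and capitals mark each CpG.
HOXD10 promoter: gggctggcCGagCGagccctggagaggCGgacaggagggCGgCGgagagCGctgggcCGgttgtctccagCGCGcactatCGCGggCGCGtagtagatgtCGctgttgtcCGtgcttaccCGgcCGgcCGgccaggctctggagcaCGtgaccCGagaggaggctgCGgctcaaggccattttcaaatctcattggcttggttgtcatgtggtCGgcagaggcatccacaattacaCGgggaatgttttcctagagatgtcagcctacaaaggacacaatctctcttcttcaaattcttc
HOXD11 promoter: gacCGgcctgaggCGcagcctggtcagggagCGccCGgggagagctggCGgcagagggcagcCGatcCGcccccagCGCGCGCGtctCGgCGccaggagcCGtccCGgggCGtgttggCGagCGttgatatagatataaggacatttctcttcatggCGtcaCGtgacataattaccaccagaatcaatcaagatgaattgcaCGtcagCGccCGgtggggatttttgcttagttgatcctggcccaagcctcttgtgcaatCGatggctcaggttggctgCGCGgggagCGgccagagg
The HOXD10 window held 23 CpGs and the HOXD11 window 27, against a median of 14 over all windows. A set of 4 motifs was searched on both strands. The HOX-PBX type TGATTNAT was in the HOXD11 window and in 2 of the 27 HOX windows, and 2.8% of all 35116 windows held it. The TATA box TATAAA was in 5 HOX windows (11.5% of all windows), the CDX type TTTATG in 3 (10.6%) and the MEIS type TGACAG in 4 (15.8%). None of these 3 motifs was in the HOXD10 or HOXD11 window.

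Each library held 32617089 to 39018926 counted reads. ALDH1B1 itself had 683, 636 and 635 reads in the clone with EGFP, against 3326, 3702 and 3661 in the clone with ALDH1B1, a log2 fold change of -2.44 (SE 0.05). The clone with ALDH1B1 averaged 100.7 ± 3.2 CPM of this transcript (SD, n = 3), above the 49.5 ± 3.8 CPM (SD, n = 3) of the parental line with DMSO. CPM, the read count relative to library size, was scaled over all 12 libraries together. Of 10 markers of colorectal epithelium, keratins KRT8, KRT18 and KRT19, EPCAM and CDX2 were expressed in all groups, and KRT20 and LGALS4 were below 0.5 CPM in each. The clone lacked most of the VIL1, CDH1 and EPCAM RNA that the parental line carried. VIL1, which encodes villin, averaged 0.472 ± 0.053 CPM with EGFP and 0.145 ± 0.085 CPM with ALDH1B1. In the parental line VIL1 averaged 398.0 ± 5.8 CPM with inhibitor and 343.5 ± 7.2 CPM with DMSO (SD, n = 3 each). EPCAM averaged 122.0 CPM with EGFP and 134.6 CPM with ALDH1B1, against 766.5 CPM with DMSO. Among replicates, EGFP replicate 3 and DMSO replicate 2 stood farthest from the others of their groups over all genes. The series design gives biological replicates, so p-values measure the spread between cultures of 1 clone and 1 parental line.

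Of the 39 members, 26 averaged at least 5 CPM in some group, and 6 were under 1 CPM in all 4 groups. HOXB1 was the least abundant: it was listed in the inhibitor table only, with 2 reads, in the inhibitor library without a replicate number and in inhibitor replicate 3. HOXB1, HOXD1, HOXD3 and HOXD4 were too low to be tested in any comparison, and HOXD12 in the inhibitor comparison. Exons are dense in these clusters, and 11 members share at least 25% of their exon bases with another annotated gene, among them HOXA9 (27.0%), HOXB6 (32.9%) and HOXA7 (62.5%). No source used here states whether counting used strand, and reads of these members and of genes overlapping them cannot be told apart.

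The clone expressed more HOX RNA than the parental line, and its surplus in HOXB was larger than that of the whole family, since HOXA was lower. Summed over members, the level per kilobase of exon was 499.4 ± 7.5 CPM per kb with EGFP, 499.0 ± 5.0 with ALDH1B1, 222.3 ± 2.4 with inhibitor and 207.5 ± 3.3 with DMSO (SD, n = 3 each). HOXB genes made up 78.6% of the sum with EGFP and 80.7% with ALDH1B1, against 41.6% with inhibitor and 41.3% with DMSO. The HOXA share was 10.7% with EGFP and 9.38% with ALDH1B1, against 40.2% with inhibitor and 40.3% with DMSO. In absolute terms, HOXB summed to 392.3 ± 9.8 CPM per kb with EGFP and 402.5 ± 6.1 with ALDH1B1, and to 92.5 ± 1.6 with inhibitor and 85.7 ± 4.4 with DMSO (SD, n = 3 each). HOXA summed to 53.6 ± 2.9 with EGFP, 46.8 ± 1.3 with ALDH1B1, 89.3 ± 2.3 with inhibitor and 83.6 ± 0.23 with DMSO (SD, n = 3 each). The HOXA share thus differed by more than the HOXA sum. These sums are descriptions with no test. In bulk RNA, a different number of expressing cells and a different amount of RNA per cell cannot be told apart.

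**Figure D1:**
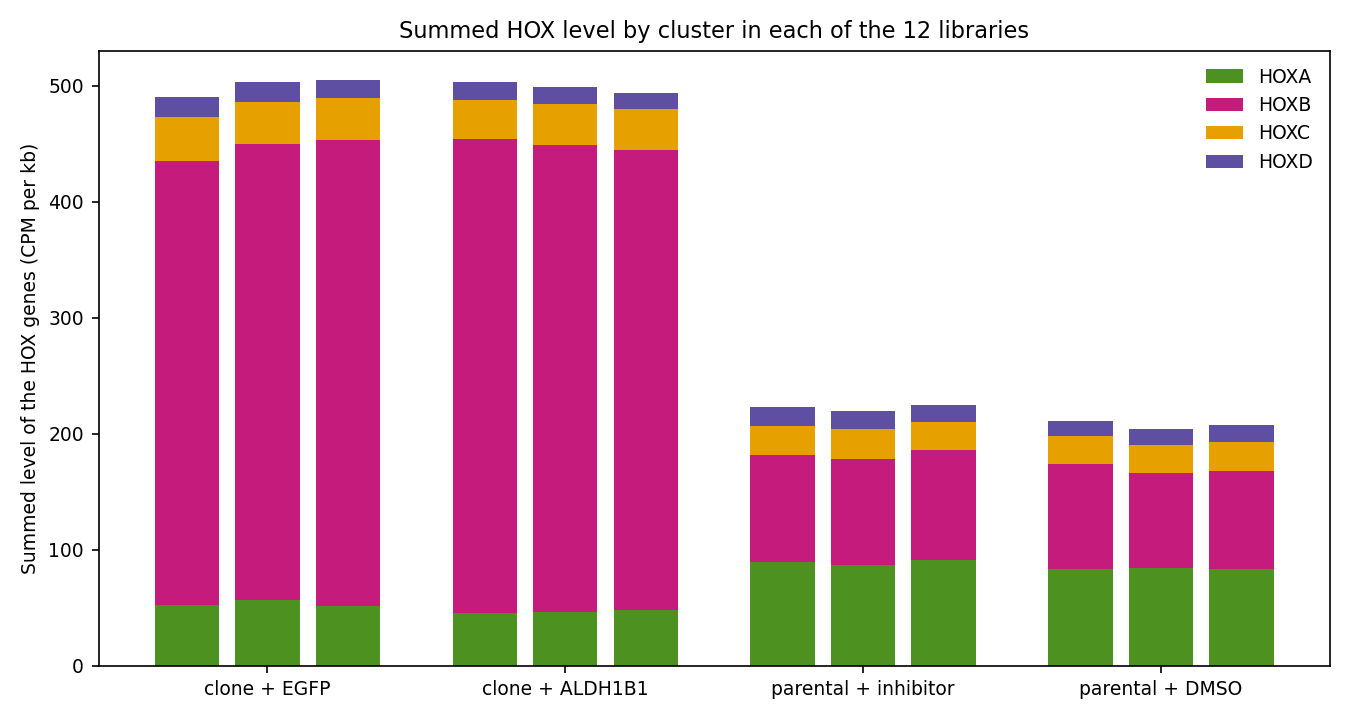
Summed level of the HOX genes, in CPM per kb of exon, in each of the 12 libraries, stacked by cluster. The 6 clone libraries lie between 490.9 and 505.0 CPM per kb and the 6 parental libraries between 204.4 and 224.3, and the HOXB segment is taller and the HOXA segment shorter in the clone.

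The position of the peak also differed. In the clone, central genes held 68.7% of the summed level with EGFP and 69.8% with ALDH1B1, against 37.3% with inhibitor and 37.1% with DMSO. Posterior genes held 24.7% with EGFP and 23.5% with ALDH1B1, and 54.5% with inhibitor and 53.8% with DMSO. Central genes summed to 342.9 ± 7.6 CPM per kb with EGFP, 348.2 ± 4.8 with ALDH1B1, 82.9 ± 2.5 with inhibitor and 77.0 ± 1.5 with DMSO. Posterior sums differed far less, at 123.2 ± 1.5, 117.4 ± 0.22, 121.2 ± 1.3 and 111.7 ± 1.1 in the same order (SD, n = 3 each). Paralog group 8 accounted for the largest part of the central surplus, at 153.6 ± 8.9 CPM per kb with EGFP and 151.5 ± 4.3 with ALDH1B1, against 14.2 ± 0.15 with inhibitor and 12.7 ± 0.15 with DMSO (SD, n = 3 each). Paralog group 9 differed less, at 79.9 ± 0.72 CPM per kb with EGFP, 76.4 ± 0.56 with ALDH1B1, 82.5 ± 0.13 with inhibitor and 75.2 ± 2.9 with DMSO (SD, n = 3 each), but its makeup differed. HOXA9, a posterior gene best known from leukaemia, had 16.1 ± 0.46 CPM per kb with EGFP and 14.0 ± 1.3 with ALDH1B1, and 34.9 ± 0.56 with inhibitor and 32.9 ± 0.16 with DMSO. HOXB9 had 52.5 ± 1.3 with EGFP and 52.1 ± 0.61 with ALDH1B1, and 34.8 ± 0.42 with inhibitor and 29.9 ± 3.1 with DMSO (SD, n = 3 each).

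**Figure D2:**
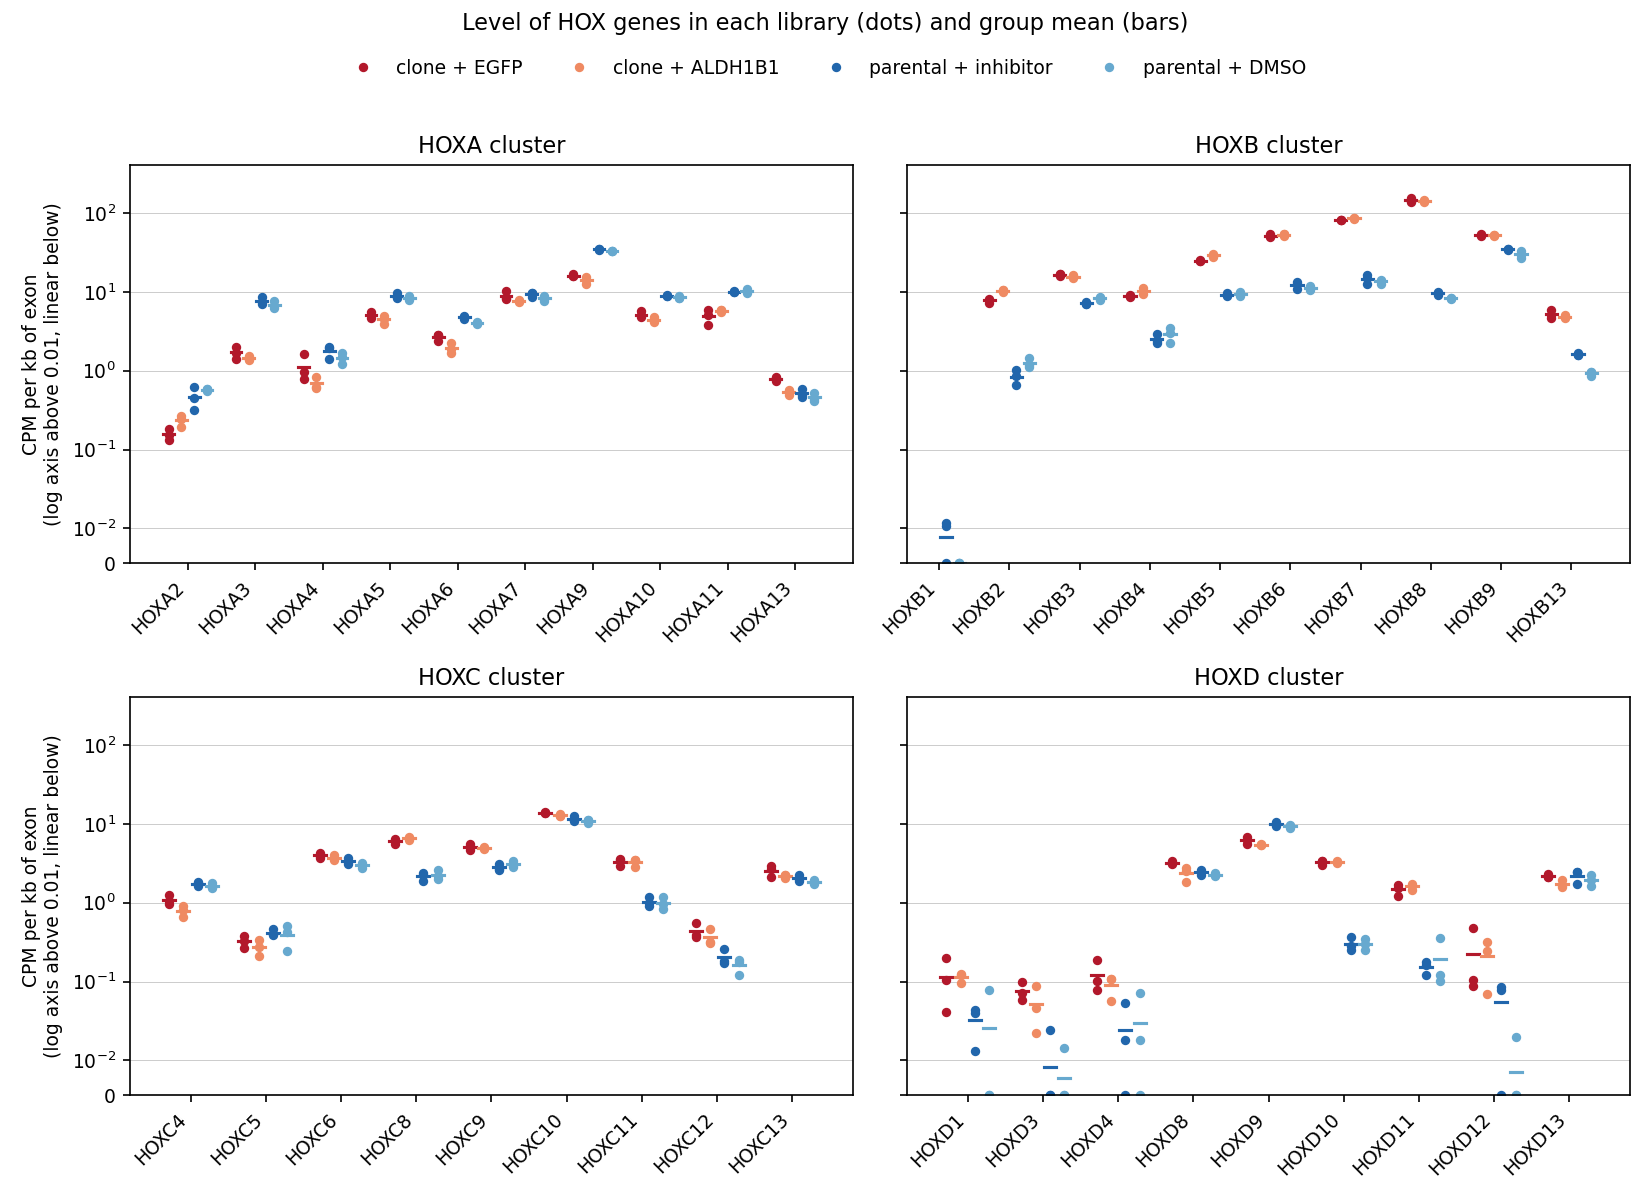
Level of HOX genes in every library, in CPM per kb of exon on an axis that is logarithmic above 0.01 and linear below, by cluster and position, with bars at group means. Within HOXB the clone libraries climb to HOXB8, at 144.4 CPM per kb with EGFP, while the parental libraries peak at HOXB9.

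Ranked by level per kilobase, the 4 highest members in both clone groups were HOXB8, HOXB7, HOXB6 and HOXB9. HOXB8, which acts in the trunk of mouse embryos, led at 144.4 ± 9.0 CPM per kb with EGFP and 142.5 ± 4.1 with ALDH1B1, and HOXB7 followed at 81.2 ± 0.41 and 85.3 ± 1.2 in the same groups (SD, n = 3 each). HOXB6 and HOXB9 did not differ from each other beyond their spread in the clone. In the parental line HOXA9 and HOXB9 led, and with inhibitor their means, 34.9 and 34.8 CPM per kb, were within the spread of libraries. The leading HOXC gene in all 4 groups was HOXC10, a hindlimb and lumbar gene in mice, at 13.7 ± 0.25 CPM per kb with EGFP, 12.8 ± 0.27 with ALDH1B1, 11.6 ± 0.77 with inhibitor and 10.9 ± 0.59 with DMSO. The leading HOXD gene was HOXD9, at 6.23 ± 0.65 and 5.43 ± 0.16 CPM per kb in the clone with EGFP and ALDH1B1, and 9.97 ± 0.65 and 9.26 ± 0.36 in the parental line with inhibitor and DMSO (SD, n = 3 each).

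The clone was next set against the parental line with DMSO, once with EGFP and once with ALDH1B1. Both comparisons use the same 3 DMSO libraries. They differ in clonal origin, construct and solvent as well as in ALDH1B1, and these cannot be told apart. All 9 tested HOXB genes rose in the clone with either construct, most HOXA genes fell, and HOXD10 and HOXD11 rose by over 7-fold. With EGFP, 22 of 35 tested HOX genes were higher and 9 were lower, on a background where 37.8% of all genes were called higher and 37.7% lower (75.5% in either direction, edgeR quasi-likelihood test with Benjamini-Hochberg adjusted p under 0.05). With ALDH1B1, 19 of 35 were higher and 10 lower, on a background of 38.0% higher and 37.4% lower (75.3% in either direction). The median log2 fold change of the HOX genes was 0.73 with EGFP and 0.32 with ALDH1B1 (0.62 and 0.28 without HOXD12, which was near 0 in DMSO), against -0.02 and -0.01 over all genes.

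HOXB8 had 279.5, 293.1 and 316.0 CPM in the EGFP libraries and 299.2, 294.8 and 283.0 CPM in the ALDH1B1 libraries, against 17.0, 16.7 and 17.1 CPM in the DMSO libraries. All 6 clone libraries were far above all DMSO libraries. The log2 fold change was 4.13 (SE 0.06) with EGFP and 4.11 (SE 0.06) with ALDH1B1, or 17.5-fold and 17.3-fold (edgeR, adjusted p = 4.9e-25 and 5.4e-25). HOXB7, whose span encloses HOXB8 and HOXB9, had 124.5, 123.4 and 124.4 CPM with EGFP and 128.5, 132.3 and 130.3 CPM with ALDH1B1, against 21.7, 21.3 and 19.3 CPM with DMSO. Its groups were as well separated, with log2 fold changes of 2.58 and 2.65 (SE 0.07 each). HOXB6 had 131.1, 140.7 and 127.8 CPM with EGFP and 138.9, 132.2 and 139.1 CPM with ALDH1B1, against 30.8, 27.3 and 28.9 CPM with DMSO, a log2 fold change of 2.20 and 2.23 (SE 0.07 each). Counted reads at the MIR196A1 locus, which lies within the span of HOXB7, were 22, 21 and 30 with EGFP and 14, 51 and 35 with ALDH1B1, against 6, 6 and 4 with DMSO. These are polyadenylated fragments over the locus and not mature miR-196a.

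The HOXB rise ran from HOXB2 to HOXB13. HOXB2, which patterns the hindbrain, had 16.9, 19.2 and 18.6 CPM with EGFP and 24.6, 23.3 and 24.6 CPM with ALDH1B1, against 2.74, 3.36 and 2.63 CPM with DMSO. All clone libraries were higher, by 2.66 (SE 0.12) with EGFP and 3.06 (SE 0.12) with ALDH1B1 on the log2 scale. HOXB13, a gene of the distal colon and prostate, had 17.9, 20.2 and 16.4 CPM with EGFP and 17.5, 16.6 and 16.1 CPM with ALDH1B1, against 2.97, 3.32 and 3.35 CPM with DMSO. Its groups did not overlap either, and the log2 fold change was 2.50 (SE 0.11) with EGFP and 2.38 (SE 0.11) with ALDH1B1. HOXB5, needed in mice for gut innervation, had 50.2, 49.6 and 52.2 CPM with EGFP and 62.3, 58.0 and 57.2 CPM with ALDH1B1, against 18.2, 19.4 and 20.1 CPM with DMSO, a rise of 1.39 (SE 0.06) and 1.62 (SE 0.06). HOXB3 had 124.3, 117.4 and 124.4 CPM with EGFP and 120.2, 113.0 and 117.0 CPM with ALDH1B1, against 63.8, 59.0 and 63.1 CPM with DMSO. The smallest HOXB differences were those of HOXB3, at 0.98 (SE 0.05) with EGFP and 0.91 (SE 0.05) with ALDH1B1, and of HOXB9, at 0.81 (SE 0.06) and 0.80 (SE 0.06). HOXB differences had no order along the cluster (Spearman 0.05 over the 9 tested members in both comparisons).

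**Figure D3:**
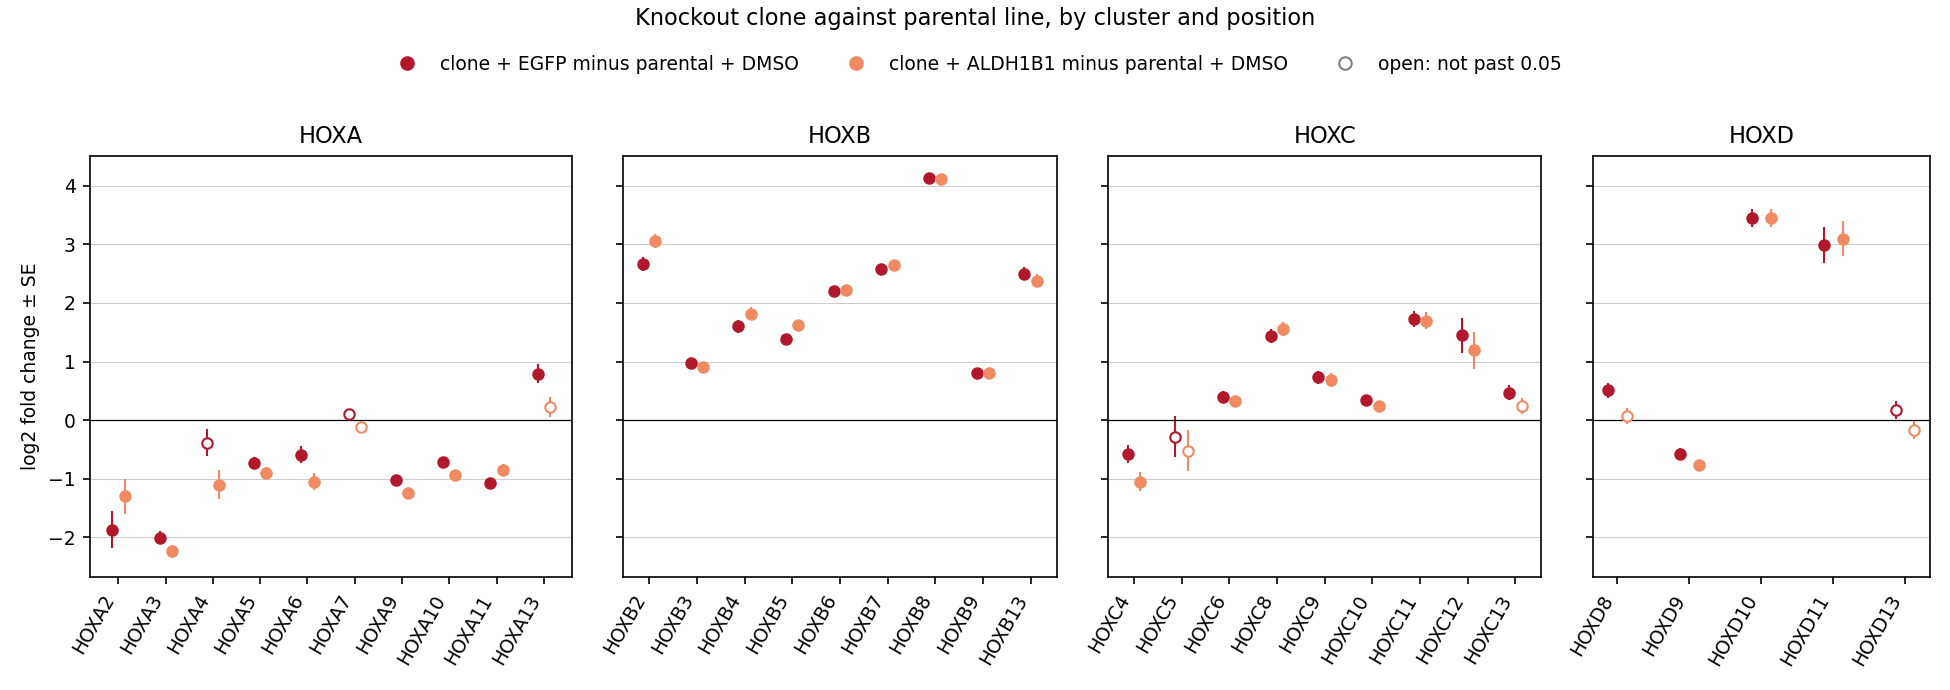
Log2 fold change with its SE of tested HOX genes in the clone with EGFP or with ALDH1B1 against the parental line with DMSO, by cluster and position, with open symbols where the adjusted p is not under 0.05. All HOXB genes lie above 0, HOXA genes from HOXA2 to HOXA11 lie near or below it, and HOXD10 and HOXD11 lie between 2.99 and 3.45; HOXD12 is not drawn because its DMSO libraries held 1, 0 and 0 reads.

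HOXA moved the other way. With EGFP, 7 of 11 HOXA genes were lower and 2 higher (median -0.72), and with ALDH1B1, 8 were lower and 1 higher (median -0.93). HOXA9 had 48.3, 47.7 and 50.3 CPM with EGFP and 38.4, 42.5 and 46.2 CPM with ALDH1B1, against 100.2, 99.2 and 99.9 CPM with DMSO. No clone library came near the DMSO level, and the log2 fold change was -1.03 (SE 0.06) with EGFP and -1.24 (SE 0.06) with ALDH1B1. HOXA3 fell the most of the HOXA genes, by 2.01 (SE 0.11) with EGFP and by 2.24 (SE 0.11) with ALDH1B1. HOXA13, a gene of the hindgut and distal limb, rose with EGFP at 0.79 (SE 0.16, edgeR adjusted p = 0.00012) and did not pass with ALDH1B1, at 0.23 (SE 0.17, adjusted p = 0.21).

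In HOXC, 7 of 9 genes were higher with EGFP and 6 with ALDH1B1, and HOXC4 was lower in both, at -0.58 (SE 0.15) with EGFP and -1.05 (SE 0.16) with ALDH1B1. HOXC11 was highest, at 1.73 (SE 0.14) with EGFP and 1.70 (SE 0.14) with ALDH1B1. HOXC8 was at 1.43 (SE 0.12) with EGFP and 1.56 (SE 0.12) with ALDH1B1, and HOXC12 at 1.45 (SE 0.30) and 1.19 (SE 0.31). In HOXD, HOXD10, which patterns the hindlimb and lumbar region in mice, had 9.19, 8.13 and 9.12 CPM with EGFP and 8.85, 8.55 and 8.95 CPM with ALDH1B1, against 0.93, 0.808 and 0.67 CPM with DMSO. Every clone library exceeded every DMSO library, and the log2 fold change was 3.45 (SE 0.16) in both comparisons, 11-fold with EGFP and 10.9-fold with ALDH1B1. HOXD11 was 2.99 (SE 0.30) and 3.10 (SE 0.30) higher with EGFP and ALDH1B1. HOXD10 and HOXD11 share 16.8% and 21.4% of their exon bases with each other, on the same strand, so the split of reads between them is uncertain. HOXD12, between HOXD11 and HOXD13, had 24, 4 and 5 reads with EGFP and 3, 16 and 12 with ALDH1B1, against 1, 0 and 0 with DMSO, and it was too low to be tested when only the 6 libraries of the compared groups were fitted. HOXD9 was lower in the clone, at -0.57 (SE 0.09) with EGFP and -0.77 (SE 0.09) with ALDH1B1, so neighbours in the cluster went in opposite directions. The HOXD median was 1.75 with EGFP and 1.59 with ALDH1B1, and 0.51 and 0.07 without HOXD12.

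Several values moved with the clone beside the HOX genes. Of 8 tested markers of colorectal epithelium, 2 were higher and 5 lower with EGFP, and 4 were higher and 3 lower with ALDH1B1. Over all genes, 75.5% were called with EGFP and 75.3% with ALDH1B1. VIL1, CDH1 and EPCAM were lower with either construct, with CDH1 at 5.65 ± 0.27 CPM with EGFP and 4.89 ± 0.24 with ALDH1B1, against 38.9 ± 3.3 with DMSO (SD, n = 3 each). CDX2 and KRT18 were higher with either construct, and KRT8 and KRT19 were higher with ALDH1B1, while with EGFP KRT19 was lower and KRT8 was not called. Of 8 fibroblast markers, all 4 that were tested were higher, and their list summed to 53.2 to 53.4 CPM with EGFP and 39.3 to 40.8 with ALDH1B1, against 14.3 to 16.7 with DMSO. FBLN1 averaged 26.2 ± 0.86 CPM with EGFP and 18.2 ± 0.31 with ALDH1B1, against 2.72 ± 0.76 with DMSO. PDGFRB had 11.5 ± 1.1 and 6.12 ± 0.84 in the same clone groups, against 1.0 ± 0.25. COL1A1 had 14.8 ± 0.2 and 15.3 ± 0.42, against 4.44 ± 0.36 (SD, n = 3 each). Other members of the list did not go this way. DCN and COL3A1 were under 0.1 CPM in all groups, and LUM was listed for the parental line alone, at 7.01 ± 0.67 CPM with DMSO (SD, n = 3). Leukocyte, endothelial and neural lists summed to at most 1.57 CPM in any library. Their part in the HOX differences was not tested.

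The comparison of EGFP with ALDH1B1 within the clone asks what changes when the knockout clone lacks a restored enzyme. As ALDH1B1 was above the parental level in the restored cells, its loss with EGFP and its excess with ALDH1B1 cannot be told apart. Within the clone, 4 HOX genes were higher with EGFP (HOXA9, HOXA13 and HOXD8 among them) and 3 were lower (HOXB2, HOXB4 and HOXB5), all by under 1.5-fold. That is 7 of 35 tested members, on a background where 17.6% of all genes were called (8.36% higher and 9.22% lower), so the number of calls was close to that of genes at large. The median log2 fold change was 0.11 over the HOX genes and 0.01 over all genes. Values were positive for 26 of 35 members and for 9118 of all 17404 tested genes. The members share the same 6 libraries, so this count is a description with no test. By cluster, HOXA had a median of 0.23 with 3 of 11 higher, HOXB -0.03 with 3 of 9 lower, HOXC 0.11 with 0 of 9 called, and HOXD 0.16 with 1 of 6 higher. The number of calls depended on single libraries. Without ALDH1B1 replicate 1 only HOXB2 was called, on a background of 1670 called of 17953 tested genes. Without ALDH1B1 replicate 2, 4 members were called (1371 of 17864 genes), and without EGFP replicate 1, also 4 (1907 of 17698). Without EGFP replicate 3, the library that stood apart, 13 members were called (3951 of 17824 genes), against 7 members and 3059 of 17404 genes with all 6 libraries. The 6 members gained in that last fit were HOXA3, HOXA4, HOXA6, HOXA7, HOXA10 and HOXD9, all higher with EGFP. Over the 6 fits that left out a library, HOXB5 and HOXA13 lost the call in 1, HOXA9 in 3, and HOXB4 and HOXD8 in 4. Of the 4 tested fibroblast markers, 3 were higher with EGFP, and their part in these results was not tested.

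HOXB2 had 16.9, 19.2 and 18.6 CPM with EGFP, against 24.6, 23.3 and 24.6 CPM with ALDH1B1. All EGFP libraries were below all ALDH1B1 libraries, and the log2 fold change was -0.39 (SE 0.07, edgeR adjusted p = 0.0015), a call kept whichever library was left out. HOXB5 had 50.2, 49.6 and 52.2 CPM with EGFP, against 62.3, 58.0 and 57.2 CPM with ALDH1B1, and fell by 0.21 on the log2 scale (SE 0.05, edgeR adjusted p = 0.012). HOXB4, known for its role in blood stem cells, had 34.7, 32.9 and 32.2 CPM with EGFP, against 39, 41.5 and 35.3 CPM with ALDH1B1, again without overlap, at -0.20 (SE 0.06, edgeR adjusted p = 0.042). When the 12 libraries were fitted together, HOXB4 was no longer called (adjusted p = 0.16). The other HOXB genes lay between -0.06 and 0.13 and were not called, HOXB8 among them at 0.03 (SE 0.05).

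HOXA13 had 3.76, 4.11 and 4.26 CPM with EGFP, against 2.53, 2.88 and 2.79 CPM with ALDH1B1. Its groups did not overlap, and it rose by 0.57 (SE 0.15, edgeR adjusted p = 0.015), or 1.49-fold. HOXA9 had 48.3, 47.7 and 50.3 CPM with EGFP, against 38.4, 42.5 and 46.2 CPM with ALDH1B1, at 0.21 (SE 0.07, edgeR adjusted p = 0.036). HOXD8 had 8.27, 8.81 and 8.22 CPM with EGFP, against 6.60, 7.18 and 4.85 CPM with ALDH1B1. ALDH1B1 replicate 3 was the lowest of these, and without it the difference of 0.45 (SE 0.13, edgeR adjusted p = 0.026) was 0.30 and not called (adjusted p = 0.10). HOXC10 had 32.7, 31.7 and 31.7 CPM with EGFP, against 29.5, 30.6 and 29.5 CPM with ALDH1B1, which did not overlap but did not pass (0.11, SE 0.06, edgeR adjusted p = 0.19). HOXD9 had 12.8, 11.7 and 10.4 CPM with EGFP, against 10.5, 10.0 and 9.94 CPM with ALDH1B1, and its groups overlapped (0.21, SE 0.09, edgeR adjusted p = 0.14).

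**Figure D4:**
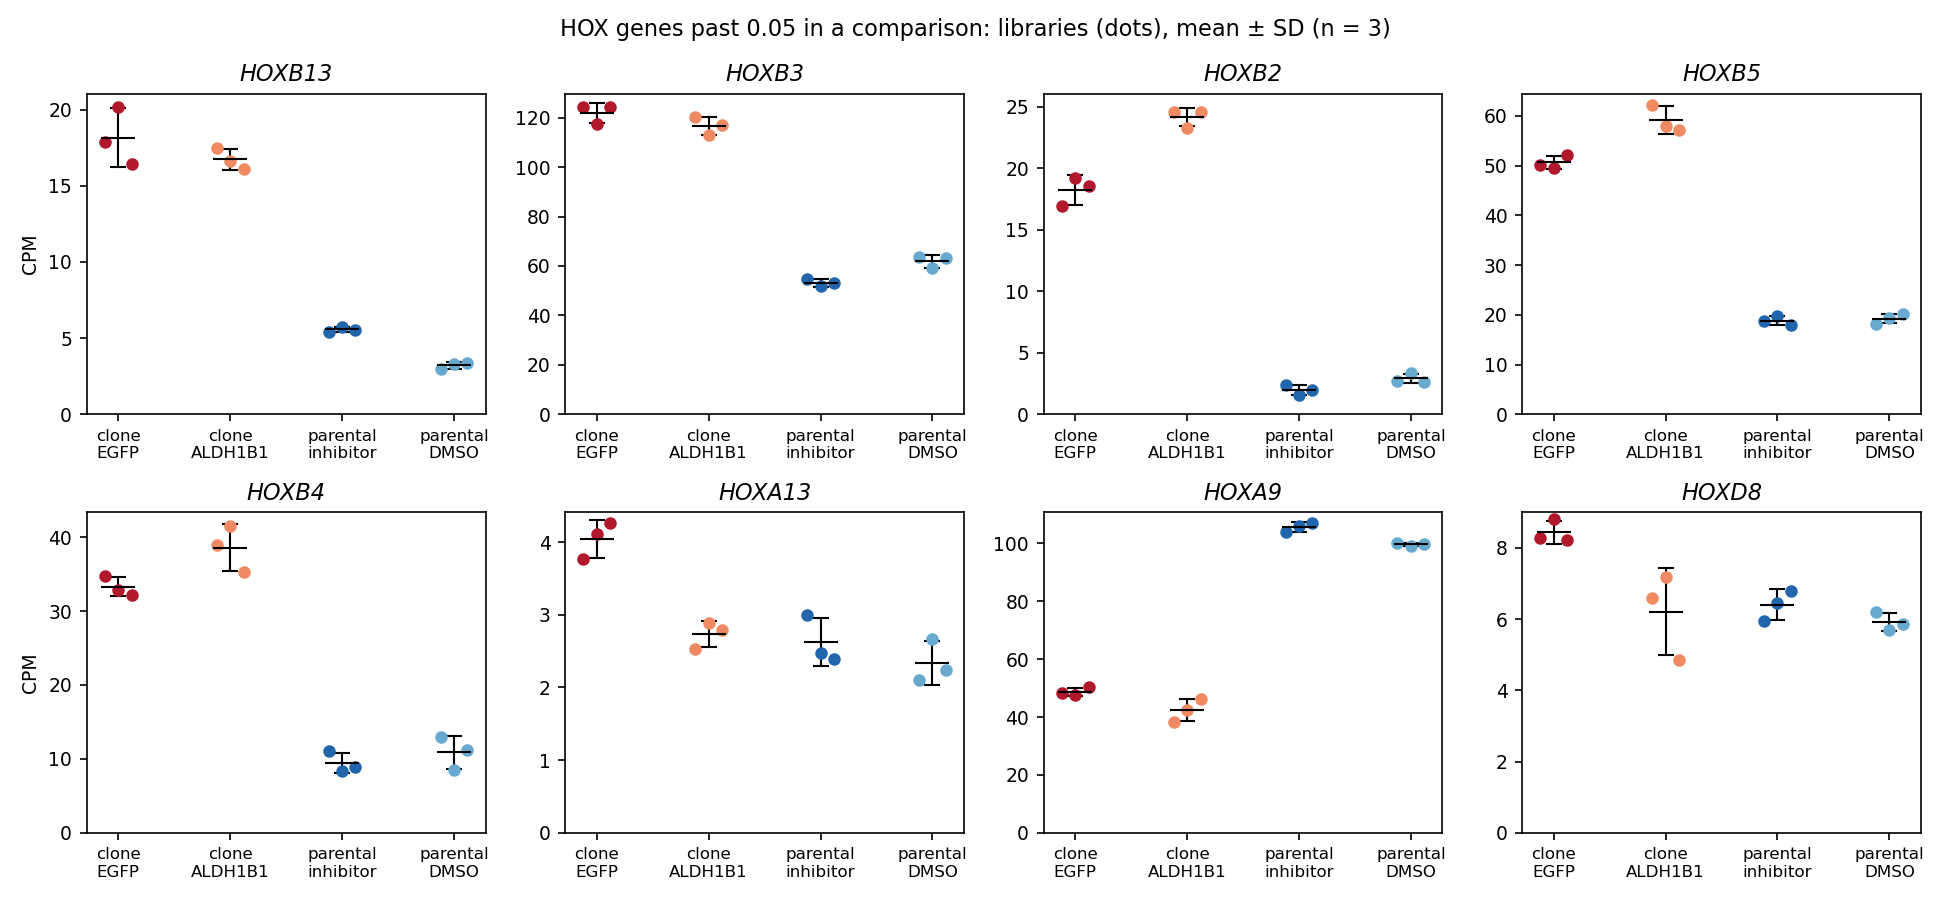
CPM of 8 HOX genes called in either comparison, in each library (dots) with the mean and SD of each group of 3. HOXB13 is higher with inhibitor than with DMSO without overlap, HOXB2 is lower with EGFP than with ALDH1B1, and the clone and the parental line differ by more than either treatment for most of these genes.

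The inhibitor comparison asks what a 24 h block of the enzyme changes in the parental line. HOXB13 was higher with inhibitor and HOXB3 was lower, and no HOXA, HOXC or HOXD gene was called. These are 2 of 34 tested members, on a background of 3.99% of all genes called (1.89% higher and 2.1% lower). The HOX median was 0.08, against -0.00 over all genes. HOXB13 had 206, 218 and 193 reads with inhibitor, against 112, 107 and 130 with DMSO, or 5.42, 5.75 and 5.56 CPM against 2.97, 3.32 and 3.35 CPM. The lowest inhibitor library was well above the highest DMSO library. Its log2 fold change was 0.78 (SE 0.13, edgeR adjusted p = 0.0049), a 1.72-fold rise, and the call held in all 6 fits that left out a library. HOXB3 had 54.8, 51.7 and 53.0 CPM with inhibitor, against 63.8, 59.0 and 63.1 CPM with DMSO, with no overlap. Its difference was -0.23 (SE 0.06, edgeR adjusted p = 0.032) and was not called without DMSO replicate 1, without DMSO replicate 3, without inhibitor replicate 3 or without the inhibitor library that has no number (adjusted p 0.079 to 0.16).

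Along the HOXB cluster the inhibitor differences followed the position number. They were -0.57 (SE 0.20) for HOXB2, -0.23 (SE 0.06) for HOXB3, -0.23 (SE 0.14) for HOXB4, -0.05 (SE 0.08) for HOXB5, 0.12 (SE 0.08) for HOXB6, 0.09 (SE 0.09) for HOXB7, 0.21 (SE 0.08) for HOXB8, 0.20 (SE 0.07) for HOXB9 and 0.78 (SE 0.13) for HOXB13. Among these only HOXB3 and HOXB13 passed the test. The Spearman correlation of log2 fold change with position was 0.97 over 9 genes, and 0.95 over 8 without HOXB13. It lay between 0.97 and 0.98 when any 1 library was left out, and was 0.90 in a fit of the 4 parental libraries that share replicate numbers. Over the 4 members with no shared exon base the correlation was 0.80. The points share the same 6 libraries and neighbouring genes share exons, so this is a description with no p. The same correlation was 0.03 in HOXA (11 genes), 0.28 in HOXC (9 genes) and 0.00 in HOXD (5 genes). In the clone, EGFP minus ALDH1B1, it was 0.60 in HOXB over 9 genes, and 0.43 over 8 without HOXB13. This clone value ran from 0.50 to 0.70 when any 1 library was left out. HOXB2, at the low end, had 2.37, 1.56 and 1.99 CPM with inhibitor, against 2.74, 3.36 and 2.63 CPM with DMSO, without overlap and without a call (edgeR adjusted p = 0.12).

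**Figure D5:**
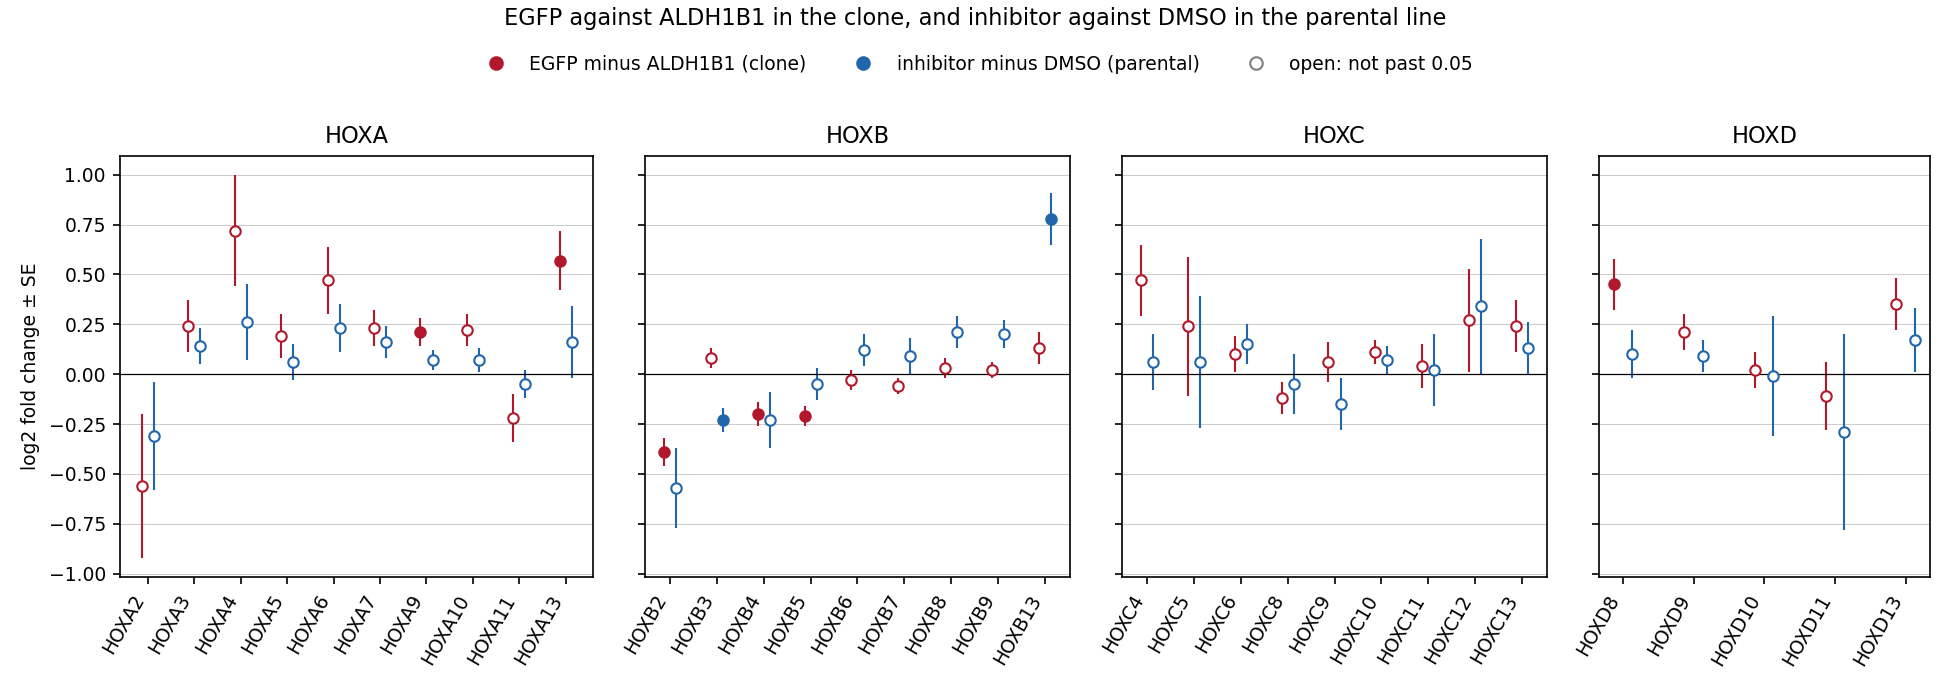
Log2 fold change with its SE of HOX genes for EGFP minus ALDH1B1 in the clone and for inhibitor minus DMSO in the parental line, by cluster and position, with filled symbols where the adjusted p is under 0.05; HOXD12, not tested in the parental line, is left out. The inhibitor values of HOXB climb with position, reaching 0.78 at HOXB13, while those of the other clusters lie between -0.31 and 0.34 with no such order.

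HOXB8 was 20.3, 18.9 and 19.9 CPM with inhibitor, against 17.0, 16.7 and 17.1 CPM with DMSO. The groups did not overlap, but the difference of 0.21 did not pass (SE 0.08, edgeR adjusted p = 0.14). HOXA9 likewise had 103.9, 106.1 and 107.2 CPM with inhibitor, against 100.2, 99.2 and 99.9 CPM with DMSO, without overlap and without a call (0.07, SE 0.05, edgeR adjusted p = 0.44). HOXC10 had 26.3, 29 and 25.6 CPM with inhibitor, against 23.8, 26.1 and 26.2 CPM with DMSO. HOXD9 had 19.8, 18.8 and 17.3 CPM with inhibitor, against 16.6, 17.5 and 17.9 CPM with DMSO. Both of these overlapped. When all 12 libraries were fitted together, 5 members were called, HOXB2, HOXB8 and HOXB9 joining HOXB3 and HOXB13, and 1021 of all 19075 tested genes were called, against 712 of 17848 with the 6 parental libraries.

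The difference of the 2 effects, EGFP minus ALDH1B1 in the clone less inhibitor minus DMSO in the parental line, was also tested. The clone was not given the inhibitor and the parental line was not given the constructs. Cell line and kind of treatment therefore cannot be told apart. This difference passed for HOXB3 and HOXB13 among 35 tested members, on a background of 5.11% of all genes called (1.9% higher and 3.2% lower). For HOXB13 the effect was 0.13 (SE 0.08) in the clone and 0.78 (SE 0.13) in the parental line, with a difference of -0.68 (SE 0.15, edgeR adjusted p = 0.0096) that was called in every fit that left out a library. For HOXB3 the effect was 0.08 (SE 0.05) in the clone and -0.23 (SE 0.06) in the parental line, with a difference of 0.29 (SE 0.07, edgeR adjusted p = 0.026). This HOXB3 call was lost when any of 6 libraries was left out: EGFP replicate 1, ALDH1B1 replicate 2, inhibitor replicate 3, the unnumbered inhibitor library, DMSO replicate 1 or DMSO replicate 3 (adjusted p 0.057 to 0.093). For the other 33 members the difference did not pass, which does not show that their effects were alike.

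In the authors' deposited table for the clone, 4 HOX genes passed 0.05 as higher and 3 as lower, and in the authors' deposited table for the inhibitor 1 passed in each direction. The called genes named above were among them, with log2 fold changes in the authors' deposited tables of 0.78 for HOXB13, -0.24 for HOXB3 and -0.40 for HOXB2.

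Partners and regulators of the HOX genes were read from lists chosen with earlier results of these data known. Of the TALE cofactors, 1 of 11 tested was higher with EGFP than with ALDH1B1, where 17.6% of all genes were called (8.36% higher and 9.22% lower). With inhibitor, 1 of 10 tested was higher than with DMSO, where 3.99% of all genes were called. Against the parental line, 6 TALE genes were higher and 5 lower in the clone with EGFP, and 5 and 5 with ALDH1B1. The share of all genes called was 75.5% with EGFP and 75.3% with ALDH1B1. MEIS3 was higher by 3.63 (SE 0.08) in both, MEIS2 by 2.63 (SE 0.14) with EGFP and 2.48 (SE 0.14) with ALDH1B1, and PBX4 was lower, at -2.12 (SE 0.09) and -2.01 (SE 0.09).

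Of 32 Polycomb group genes, 2 were higher and 5 lower with EGFP than with ALDH1B1 (median 0.00, against 0.01 over all genes). Of all genes in this comparison, 17.6% were called (8.36% higher and 9.22% lower). EED, a core subunit of Polycomb repressive complex PRC2, was at -0.31 (SE 0.05), CBX7, a chromodomain reader, at 0.25 (SE 0.08) and PHC1, a subunit of PRC1, at 0.20 (SE 0.06). Of 22 Trithorax group and opposing factors, 2 were higher and 7 lower (median -0.09), led by MLLT3 at 0.54 (SE 0.09) and by the histone methyltransferase gene KMT2D at -0.53 (SE 0.06). With inhibitor, where 3.99% of all genes were called, no Polycomb gene was called. Of the Trithorax list MEN1, which encodes the MLL partner menin, was called at 0.21 (SE 0.05). Against the parental line, 19 of 32 Polycomb genes were higher and 8 lower with EGFP, and 20 and 6 with ALDH1B1. Their median was 0.27 with EGFP and 0.26 with ALDH1B1. Of the 22 genes of the Trithorax list, 7 were higher and 10 lower with EGFP, and 8 and 5 with ALDH1B1. There 75.5% of all genes were called with EGFP (37.8% higher and 37.7% lower) and 75.3% with ALDH1B1 (38.0% higher and 37.4% lower). PCGF1, a subunit of a variant PRC1, was lower, at -0.96 (SE 0.07) with EGFP and -0.93 (SE 0.07) with ALDH1B1, and the H3K27 demethylase gene KDM6B, on the Trithorax list, was at -1.83 (SE 0.05) in both.

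Of 8 ParaHox and EVX genes, which are close relatives of the HOX family, 3 were tested within the clone and CDX2 was the only call (17.6% over all genes). This gene, which specifies the intestine and activates HOX genes in mice, averaged 61.2 ± 0.51 CPM with EGFP, against 49.9 ± 4.3 CPM with ALDH1B1 (0.31, SE 0.06, edgeR adjusted p = 0.003), above 25.2 ± 1.8 CPM in the parental line with DMSO (SD, n = 3 each). Among 19 tested noncoding and readthrough genes of the clusters, HAGLR, a long noncoding RNA of the HOXD cluster, was higher with EGFP than with ALDH1B1, at 0.59 (SE 0.06), and HOXB-AS3, antisense to HOXB5 and HOXB6, was lower, at -0.19 (SE 0.05). With inhibitor, 0 of 17 tested genes of this list were called (3.99% over all genes). Against the parental line 12 were higher and 3 lower with either construct, where 75.5% of all genes were called with EGFP and 75.3% with ALDH1B1. Among them were HAGLR at 3.69 (SE 0.12) with EGFP and 3.12 (SE 0.12) with ALDH1B1, and HOTAIR, a HOXC noncoding RNA, at 2.32 (SE 0.09) and 2.16 (SE 0.10).

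Of 14 tested genes of retinoic acid signalling, 2 were higher with EGFP than with ALDH1B1 and 1 was lower (17.6% called over all genes). STRA6, a retinol transporter, was at 0.23 (SE 0.05), and CYP26A1, which degrades retinoic acid, was at 0.77 (SE 0.13). CYP26A1, at 5.44 ± 0.52 CPM with EGFP and 3.20 ± 0.22 CPM with ALDH1B1 (SD, n = 3 each), was named after its values were seen. With inhibitor, 2 of 15 tested genes of this list were higher than with DMSO and 1 was lower (3.99% called over all genes). ALDH1A3, a retinaldehyde dehydrogenase, was higher at 0.32 (SE 0.05), and DHRS3, a retinaldehyde reductase, at 0.23 (SE 0.05). Against the parental line, 7 of 16 tested genes were higher and 9 lower with either construct. Over all genes, 75.5% were called with EGFP and 75.3% with ALDH1B1. CRABP2, which carries retinoic acid to the nucleus, was higher by 3.75 (SE 0.05) with EGFP and 3.74 (SE 0.05) with ALDH1B1. NRIP1, a corepressor of nuclear receptors, was lower, at -4.00 (SE 0.14) and -3.84 (SE 0.14).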

How the data were processed

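Per the submitters' processing notes, reads were handled with STAR, fastp and DESeq2 on hg38, with no versions named. No source used here states how reads were counted, or whether by strand. The authors deposited raw counts, as whole numbers for each gene in each library, in 1 table for the clone (29667 genes) and 1 for the parental line (30478 genes). The deposited log2 fold changes and p-values were used only to set the authors' calls beside those made here, and 24 normalized columns were not used. All 39 HOX spans and exon lengths equal those of GENCODE release 29. One inhibitor column carries no replicate number and was used as a replicate without one.

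The main test was the quasi-likelihood test of edgeR 4.0.16 under R 4.3.3 (TMM scaling, filterByExpr, glmQLFTest, Benjamini-Hochberg adjustment over all genes tested, threshold 0.05). Each treatment comparison was fitted on its own 6 libraries, and the comparisons between clone and parental line and the difference of effects on all 12, over genes listed in both tables. Standard errors came from the F statistic. CPM used TMM factors over 12 libraries, divided by exon length for levels per kilobase. The tests were run on simulated counts before use. The members and lists were chosen with earlier results of these data known. Values per library are given for members past 0.05 in a treatment comparison or in the difference (at most 8 each), the highest member of each cluster and at most 8 members with the smallest p against the parental line. Of each list, at most 3 called genes of at least 5 CPM are named, by size of change. Results of some genes that these rules would name are not reported here. Alternatives were DESeq2 1.42.0, RLE size factors, no low-count filter, each library left out, a replicate block, other sets of libraries in the fit, plain CPM and leaving out members with at least 25% shared exon bases; the fit on 4 libraries without a block and the values without HOXB13, without HOXD12 or without members that share exon bases were chosen after seeing the data.

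Replicate numbers did not pair libraries: deviations of same-numbered libraries correlated at -0.06 to 0.08.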

Additional observations from a re-analysis of the deposited data

Results flagged for a closer look

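For HOXB13 and HOXB3 the 2 effects differed, by a test of the difference itself. This was EGFP minus ALDH1B1 in the clone less inhibitor minus DMSO in the parental line, on the log2 scale. Cell line and kind of treatment differ together in it and cannot be told apart. For HOXB13 the difference was -0.68 (SE 0.15, edgeR adjusted p = 0.0096), and it was called in all 12 fits that left out a library. For HOXB3 the difference was 0.29 (SE 0.07, edgeR adjusted p = 0.026), and it was not called when any of 6 libraries was left out: EGFP replicate 1, ALDH1B1 replicate 2, inhibitor replicate 3, the inhibitor library without a number, DMSO replicate 1 or DMSO replicate 3.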

How the results depend on the processing

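The number of HOX genes called ran from 1 to 13 for EGFP minus ALDH1B1 (7 with all libraries), from 1 to 2 for inhibitor minus DMSO and from 1 to 2 for the difference when each library was left out in turn, and the cause was not tested. Over all genes the same fits called 1371 to 3951, 171 to 832 and 404 to 1088. Against the parental line, 31 to 33 and 29 to 30 HOX genes were called in such fits. One fit over all 12 libraries called 5 members for the inhibitor (1021 of 19075 genes). Without the low-count filter 1402 genes were called for the inhibitor, against 712. Since replicate numbers did not pair libraries, a replicate block is given only here: it called 8 members in the clone (3563 of 17404 genes in all) and, on the 4 parental libraries with shared numbers, 1 (549 of 18088 genes). The same 4 libraries without a block, a fit added after the data were seen, also called 1 (347 genes).

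Of 372 alternatives for single genes, 340 kept direction and call, 29 lost the call, 2 gained it and 1 reversed: HOXB8 for EGFP minus ALDH1B1 was 0.03 with all libraries and ran from -0.02 (without EGFP replicate 3) to 0.07 when each was left out, with no call. All 29 losses were in the 2 treatment comparisons or the difference, and none was against the parental line. The 372 also count members with no call to lose. The HOXB share of the summed level was 77.5% with EGFP, 79.6% with ALDH1B1, 42.3% with inhibitor and 42.9% with DMSO in plain CPM, and 83.4%, 85.0%, 57.5% and 57.2% in the same order without members that share at least 25% of their exon bases. Depth limited HOXB1, HOXD1, HOXD3, HOXD4 and HOXD12, which had at most 24 reads in any library.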
